A study of Gallus gallus with 9 samples.

Results

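Translation initiation factor genes are the genes of the protein machinery that brings an initiator methionine tRNA, an mRNA and the ribosomal subunits together at a start codon. Members were the genes whose symbol in the platform annotation begins with EIF and a digit, taken from probe sets with a single symbol, and each gene was read from its brightest probe set, judged by the mean of all 9 arrays. This gave 44 genes of 13009. They were measured in chicken embryos (WL in the labels) of 6.5 days, in cells of the gonad that had been separated by magnetic-activated cell sorting (MACS). Total RNA of 3 preparations labelled PGC and of 6 labelled GSC was each hybridised to an Affymetrix GeneChip Chicken Genome Array, and the stated aim was to compare both fractions. The letters PGC commonly stand for primordial germ cells, the labels leave GSC unexplained, and neither the sorting antigen nor the sex of the embryos is given in the sources used here. No allele or agent is named for any group. The labels do not say whether replicates came from separate embryo pools, so p-values reflect a spread between preparations that could be purely technical.

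In this pathway eIF2 carries the initiator tRNA as a complex with GTP, eIF3 binds the small ribosomal subunit, and eIF1 and eIF1A keep scanning accurate until a start codon is met. The cap complex eIF4F, made of the cap-binding protein eIF4E, the scaffold eIF4G and the helicase eIF4A, recruits the mRNA. Kinases that phosphorylate eIF2 alpha, and 4E-binding proteins that occupy eIF4E, slow initiation, and germ cells are known for controlling many mRNAs at this step.

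The 8 germ cell markers examined, DDX4 and DAZL among them, were all called higher in PGC, and their summed level ran from 11.36 to 12.18 (log2) in PGC and from 7.91 to 8.22 in GSC. TDRD5 was the only one of the 8 under the reporter mark in all GSC arrays, a mark of 2.88 set at the 95th percentile of all RPTR reporter values, from probes that target no chicken gene. Of the 10 gonadal somatic markers, 9 were called lower in PGC, with sums of 10.64 to 12.00 in PGC and 12.13 to 12.59 in GSC, and 0 were under the mark in all arrays of a group. Of the 8 mesonephric epithelium markers, 6 were called higher in PGC and 2 lower, with sums of 9.89 to 10.44 against 7.59 to 8.08, and HNF4A was under the mark in all GSC arrays. All 5 endothelial markers were called lower (6.66 to 8.22 against 8.80 to 9.43), as were 3 of 5 erythroid markers (12.48 to 12.80 against 12.84 to 13.30) and 3 of 5 leukocyte markers (6.32 to 7.08 against 7.20 to 7.60), of which LYZ and SPI1 were under the mark in every array. The part of these other cells in the differences reported here was not tested, and in bulk RNA fewer cells of a type and less RNA per cell cannot be told apart. PGC replicate 3 stood nearer the GSC arrays (correlation over all probe sets 0.956 to 0.969) than the other PGC arrays did (0.930 to 0.950). Its mean germ cell marker level was the lowest in PGC (7.84, against 8.64 and 8.52 in replicates 1 and 2). Its gonadal somatic level was the highest (6.44, against 5.05 and 5.68), as were its erythroid, leukocyte and endothelial levels. Its mesonephric level lay between those of the others (6.69, against 6.29 and 6.79). Counts are therefore also given without it.

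Initiation factor genes differed between the fractions in both directions and by little. In limma's test, adjusted over all 13009 genes, 9 of the 44 were higher in PGC (20.5%, where 22.5% of all genes were), 11 were lower (25.0%, where 19.5% were) and 24 did not pass. Their median log2 difference, PGC minus GSC, was 0.01, beside -0.02 for all genes. Of all genes 42.0% were called in either direction, so the share of members called was near the background. EIF2AK3, the gene of the endoplasmic reticulum stress kinase PERK, was the only member called with a change of at least 2-fold, which makes 2.27% of the members where 14.1% of all genes reached that size. The members whose 3 PGC arrays lay wholly above or below the 6 GSC arrays numbered 19 (43.2%, beside 36.4% of all genes). A set of 2387 genes had a mean level in the quartile range of the members (7.07 to 9.55), named genes of a like level below. Of these, 27.7% were called higher, 26.9% lower, and 49.6% had arrays that did not overlap. The members' shares were smaller on each count. All 44 members were counted, however, also those above and below this range, so levels were not matched. Among all genes with a mean over the reporter mark, 26.0% were called higher, 24.1% lower and 42.9% did not overlap. The shares were 20.9%, 25.6% and 44.2% of the 43 members over the mark. The factor groups below hold 2 to 11 measured genes each, and their counts are to be read beside these shares.

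**Figure D1:**
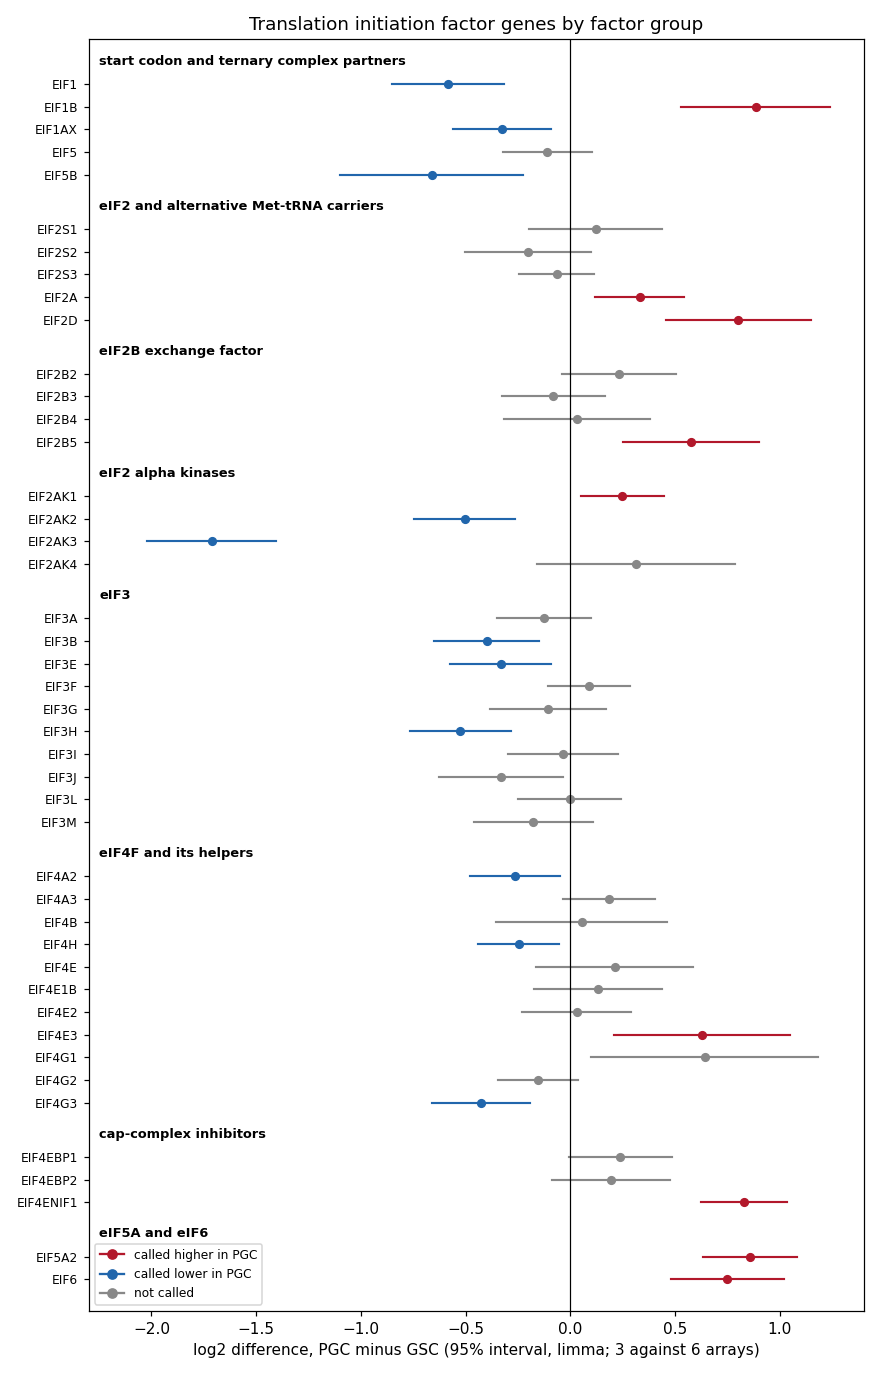
Fitted log2 difference between PGC and GSC arrays for the 44 initiation factor genes, grouped by factor. Points are estimates and lines 95% intervals from limma, red where called higher in PGC (9 genes), blue where called lower (11) and grey where not called (24), and EIF2AK3 at -1.71 lies far from the rest, which run from -0.66 to 0.89.

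Single arrays moved these counts. No share of all genes is given for fits with fewer arrays, so changes in count cannot be read as a trait of the members. Without PGC replicate 3, 12 members were higher and 10 lower: EIF4E (0.48), EIF2AK4 (0.67) and EIF2S1 (0.32) were then called higher, and EIF5B (-0.41) was no longer called. For EIF4E, EIF2AK4 and EIF2S1, PGC replicate 3 lay below all GSC arrays, not between them and the other PGC arrays. Without PGC replicate 1, GSC replicate 4 or GSC replicate 5, 7 members were lower in place of 11. In all 9 genes called higher, PGC replicate 3 lay between the GSC mean and the mean of PGC replicates 1 and 2, and so it did in 10 of the 11 called lower. It did so in 77.1% of all genes called higher and 73.9% of all called lower, so this position of the array is common among called genes. With GSC replicates 1 to 3 only, 10 of the 20 calls were lost (EIF1AX, EIF2A, EIF2AK1, EIF2B5, EIF3E, EIF4A2, EIF4E3, EIF4G3, EIF4H and EIF5B), and with GSC replicates 4 to 6 only, 8 (EIF1AX, EIF2A, EIF2AK1, EIF3B, EIF4A2, EIF4E3, EIF4G3 and EIF4H).

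**Figure D2:**
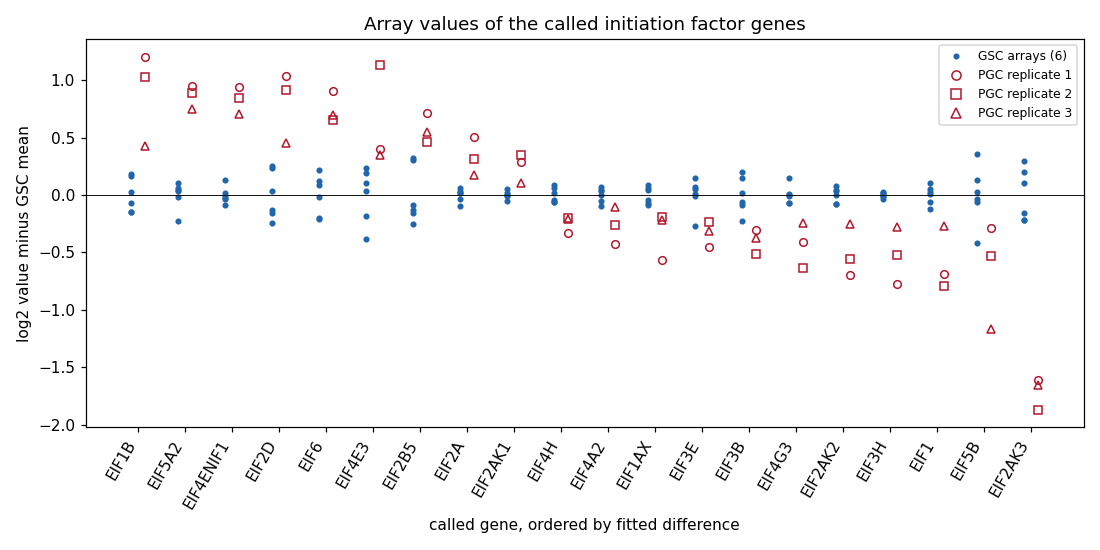
Array values of the 20 called initiation factor genes, as log2 value minus the mean of the 6 GSC arrays. Filled blue points are GSC arrays and open red symbols PGC replicates 1 to 3, and in 18 genes the PGC arrays do not overlap the GSC arrays, EIF3E and EIF5B being the exceptions.

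The factors grouped around start codon selection and subunit joining moved in opposite directions. Of the 5 measured, EIF1B rose, EIF1, EIF1AX and EIF5B fell, and EIF5 did not pass. EIF1B, a close paralog of the scanning fidelity factor EIF1, measured 8.36, 8.18 and 7.58 (log2) in PGC replicates 1 to 3, and from 7.00 over a median of 7.13 to 7.33 in GSC. EIF1 itself measured 8.79, 8.69 and 9.22 in PGC, against 9.36, 9.50 and 9.58 as the lowest, median and highest of the GSC arrays. The PGC arrays thus lay above all GSC arrays for EIF1B and below all of them for EIF1, and replicate 3 was the PGC array nearest to GSC for both. EIF1B was 1.85-fold higher (log2 difference 0.89 ± 0.16 SE, limma adjusted p = 0.00113) and EIF1 1.50-fold lower (-0.58 ± 0.12, limma adjusted p = 0.00261). The log2 ratio of EIF1B to EIF1 within an array was -0.44, -0.51 and -1.64 in PGC and from -2.59 to -2.04 in GSC, a change of 1.47 that was not tested. The level of this ratio has no meaning of its own, since both probe sets bind their targets differently.

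EIF5B, the GTPase that joins the ribosomal subunits, measured 7.00, 6.75 and 6.12 in PGC and 6.87, 7.28 and 7.64 as the lowest, median and highest in GSC. PGC replicate 1 lay within the GSC range, and replicates 2 and 3 lay under it. The gene was 1.58-fold lower (-0.66 ± 0.20, limma adjusted p = 0.0193), and this call rested on PGC replicate 3, without which the difference was -0.41 (limma adjusted p = 0.0698). EIF1AX, which encodes the eIF1A that binds the ribosomal A site during scanning, fell by 0.33 ± 0.11 on the log2 scale, with PGC values of 7.94, 8.31 and 8.29 under a GSC range of 8.42 to 8.60. It lost its call without PGC replicate 1 (-0.21), GSC replicate 4 (-0.31) or GSC replicate 5 (-0.32), and with the mean of its probe sets (-0.13, limma adjusted p = 0.152), of which the second brightest was called lower (-0.46). The dimmer EIF1AX probe sets, which enter that mean, had PGC and GSC means under the reporter mark. EIF5, the GTPase-activating partner of eIF2, measured 10.45 ± 0.07 in the 3 PGC arrays and 10.56 ± 0.11 in the 6 GSC arrays (mean ± SD), and its difference of -0.11 had a 95% interval of -0.32 to 0.10. A second EIF5 probe set, well over the reporter mark (9.04 in PGC and 9.80 in GSC), had all PGC arrays under all GSC arrays. It was called lower in limma's fit over all probe sets (-0.76, adjusted p = 0.00113), so the probe sets of EIF5 differ. With the mean of its probe sets, 1 of them under the mark in every array, EIF5 was called lower (-0.30, limma adjusted p = 0.0179).

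The subunits of eIF2 did not pass, whereas both genes of alternative tRNA carriers rose. EIF2S1, EIF2S2 and EIF2S3 encode the alpha, beta and gamma subunits, and their log2 differences were 0.12, -0.20 and -0.07. The intervals were -0.20 to 0.44 for EIF2S1, -0.50 to 0.10 for EIF2S2 and -0.25 to 0.11 for EIF2S3. A second EIF2S3 probe set, over the reporter mark (7.03 in PGC and 6.64 in GSC), overlapped between the fractions. It was called higher in limma's fit over all probe sets (0.39, adjusted p = 0.0269). PGC replicate 3 was the lowest PGC array for EIF2S1 (8.90, against 9.44 and 9.54) and lay under the lowest GSC array (9.04). Without this replicate EIF2S1 was called higher by 0.32 (limma adjusted p = 0.0397). EIF2D, which can deliver the initiator tRNA without GTP and takes part in ribosome recycling, measured 7.84, 7.73 and 7.26 in PGC. In GSC it ran from 6.57 over a median of 6.76 to 7.07. All PGC arrays were above all GSC arrays, and the gene was 1.74-fold higher (0.80 ± 0.16, limma adjusted p = 0.0018). EIF2A, which is unrelated in sequence to the eIF2 subunits, was 1.26-fold higher (0.33 ± 0.10), with PGC values of 8.47, 8.29 and 8.15 over a GSC range of 7.87 to 8.03, and lost its call without PGC replicate 1 (0.25, limma adjusted p = 0.095). In this group limma called 0 genes lower, and 0 had an unadjusted p under 0.05 in that direction.

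DENR, which forms a complex with MCTS1 that resembles EIF2D in domains and function, was one of 7 genes of scanning and recycling outside the EIF names. It measured 9.05, 8.88 and 8.75 in PGC, above a GSC range of 8.16 to 8.41, and was 1.49-fold higher (0.57 ± 0.10, limma adjusted p = 0.00105). MCTS1 was under the mark in all PGC arrays and 5 of the 6 GSC arrays, so its level was not measured here. DHX29, a helicase that helps the small subunit through structured leaders, fell by 0.33 and lost its call without GSC replicate 6 (-0.32), PGC replicate 2 (-0.34) or PGC replicate 3 (-0.28). The call was also lost over all 9 arrays when arrays that fit the model poorly counted for less (-0.29, limma adjusted p = 0.0566). Its other probe set was called lower in limma's fit over all probe sets (-0.61, adjusted p = 0.00455), with all PGC arrays under all GSC arrays. The other 5 of these genes, the recycling factor ABCE1 (0.04) and MCTS1 among them, did not pass.

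Of the eIF2B complex, which recharges eIF2 with GTP, 4 subunits were measured and 1 rose. EIF2B5, the catalytic epsilon subunit, measured 6.33, 6.08 and 6.16 in PGC and 5.36, 5.51 and 5.94 as the lowest, median and highest in GSC. It was 1.49-fold higher, without overlap of the arrays (0.58 ± 0.15, limma adjusted p = 0.0087). EIF2B2 (0.23), EIF2B3 (-0.08) and EIF2B4 (0.03) did not pass, with intervals of -0.04 to 0.50, -0.33 to 0.16 and -0.32 to 0.38. With the mean of its probe sets EIF2B3 was called lower (-0.30, limma adjusted p = 0.0112). PGC replicate 3 read high for EIF2B4 (8.26, against 7.79 and 7.55). Limma called 0 of the 4 lower, and 0 were lower at an unadjusted p under 0.05.

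The eIF2 alpha kinases, which phosphorylate the eIF2 that eIF2B recharges, gave the largest change among the members. EIF2AK3 measured 3.33, 3.08 and 3.29 in PGC and 4.73, 4.92 and 5.24 as the lowest, median and highest in GSC. Every PGC array lay more than 1 log2 unit under every GSC array. The gene was 3.28-fold lower (-1.71 ± 0.14, limma adjusted p = 5.16e-06), and with 1 array left out at a time the difference ran from -1.76 to -1.63. Its PGC values stood not far over the reporter mark, where the authors' normalization compresses differences. EIF2AK2, the interferon-induced kinase PKR that senses double-stranded RNA, fell too, with 3.13, 3.27 and 3.58 in PGC under a GSC range of 3.75 to 3.91 (1.42-fold, -0.50 ± 0.11, limma adjusted p = 0.00336). The EIF2AK2 values of both fractions stood not far over the mark.

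Of the other kinases, EIF2AK1 rose and EIF2AK4 did not pass. EIF2AK1, the heme-regulated kinase, measured 7.79, 7.85 and 7.61 in PGC and 7.45 to 7.55 in GSC, and was called higher by 0.25 ± 0.09 (limma adjusted p = 0.0436). The call was lost without any 1 of GSC replicates 2 to 6 (0.24 to 0.25), without PGC replicate 1 (0.23) and without PGC replicate 2 (0.20), though the arrays did not overlap. EIF2AK4, the amino acid sensor GCN2, measured 7.13, 7.23 and 6.11 in PGC and 6.30, 6.49 and 6.78 as the lowest, median and highest in GSC. PGC replicates 1 and 2 lay above all GSC arrays and replicate 3 below them, so the difference of 0.31 ± 0.22 did not pass (limma adjusted p = 0.275). Without PGC replicate 3 it was 0.67 (limma adjusted p = 0.000977), with array weights, which let arrays that fit the model poorly count for less, 0.59 (limma adjusted p = 0.00717), and both of its other probe sets were called higher (0.55 and 1.06). Both were dim, with 3 and 2 of the 6 GSC arrays under the reporter mark, and in both the fractions overlapped. The mean of the EIF2AK4 probe sets gave 0.64 (limma adjusted p = 0.0152). The log2 ratio of EIF2AK1 to EIF2AK3 was 4.46, 4.77 and 4.32 in PGC and 2.31 to 2.77 in GSC.

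Around these kinases, 6 stress response genes had a probe set, of which 2 rose, 1 fell and 3 did not pass (GCN1, IMPACT and NCK1). GCN1 was under the reporter mark in every array, so its level was not measured here. ATF4, a transcription factor whose mRNA is translated more when eIF2 alpha is phosphorylated, measured 9.17, 9.08 and 9.25 in PGC and 9.93 to 10.03 in GSC. It was 1.76-fold lower, with the PGC arrays under all GSC arrays (-0.82 ± 0.09, limma adjusted p = 3.03e-05), and another probe set gave -0.95. A further ATF4 probe set, dim at 3.01 in PGC and 3.11 in GSC, gave -0.10 and was not called. ASNS, asparagine synthetase and a known ATF4 target in mammals, went the other way, at 7.16, 6.91 and 6.67 against 4.83, 5.38 and 5.66 as the lowest, median and highest in GSC. It was 3.00-fold higher (1.59 ± 0.19, limma adjusted p = 5.97e-05). PPP1R15B, a subunit of the phosphatase that removes the mark from eIF2 alpha, was 1.52-fold higher (0.61 ± 0.11), with 7.85, 7.40 and 7.58 over a GSC range of 6.91 to 7.11. These are mRNA levels, and the phosphorylation of eIF2 alpha was not measured.

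**Figure D3:**
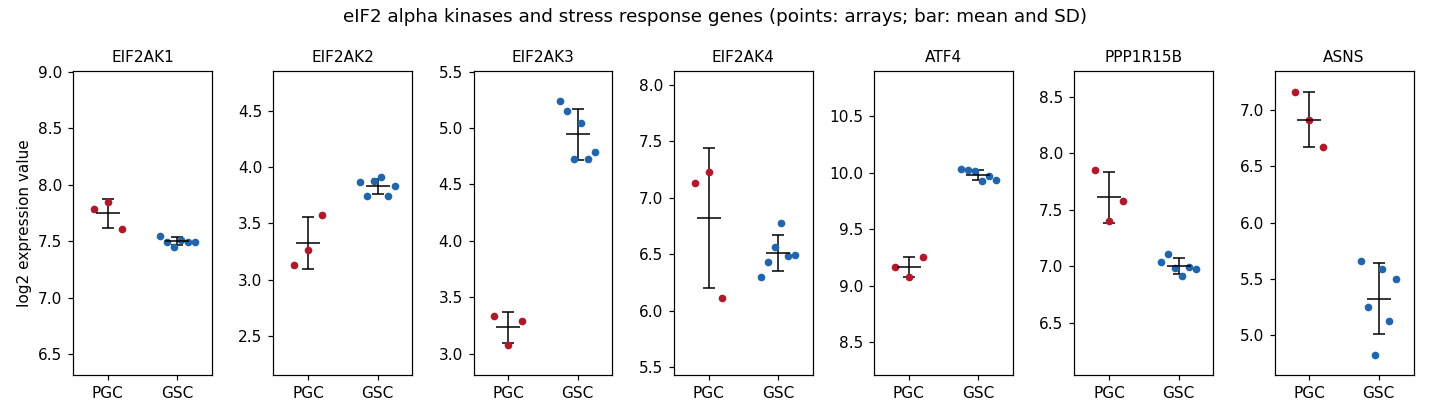
Array values (log2) of the 4 eIF2 alpha kinase genes and of ATF4, PPP1R15B and ASNS, on axes of equal span. Points are arrays (3 PGC, 6 GSC) and bars the mean and SD, and only for EIF2AK4 do the fractions overlap, through PGC replicate 3 at 6.11.

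Genes of the eIF3 complex, the largest initiation factor, that passed were lower in PGC. Of 10 measured subunits, 3 fell (EIF3H, EIF3B and EIF3E), 7 did not pass and limma called 0 higher (0 higher and 4 lower at an unadjusted p under 0.05), and the median log2 difference was -0.15. The 30% that fell stand beside 19.5% of all genes and 26.9% of the genes of a like level. Called higher were 22.5% of all genes and 27.7% of those of a like level. EIF3H, a non-core subunit, measured 9.10, 9.35 and 9.60 in PGC and 9.84, 9.88 and 9.90 as the lowest, median and highest in GSC. EIF3B, a scaffold subunit, measured 8.55, 8.34 and 8.48 in PGC, against 8.63, 8.83 and 9.06. In both genes all PGC arrays lay under all GSC arrays, and for EIF3H replicate 3 was nearest to GSC.

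EIF3H was 1.44-fold lower (-0.52 ± 0.11, limma adjusted p = 0.00261) and EIF3B 1.32-fold lower (-0.40 ± 0.11, limma adjusted p = 0.015). EIF3B lost its call without PGC replicate 2 (-0.34, limma adjusted p = 0.0671) and with the mean of its probe sets (-0.18, limma adjusted p = 0.0712). EIF3E, another non-core subunit, fell by 0.33 ± 0.11, with 9.58, 9.80 and 9.72 in PGC and 9.76 to 10.18 in GSC, where 1 low GSC array made the ranges overlap. Its call was lost without GSC replicate 2 (-0.34), GSC replicate 4 (-0.30), GSC replicate 5 (-0.32), GSC replicate 6 (-0.32) or PGC replicate 1 (-0.27), and with the mean of its probe sets (-0.18, limma adjusted p = 0.145). The second probe sets of EIF3B and EIF3E had means under the reporter mark. EIF3J, a loosely bound subunit, had the same difference of -0.33 but spread more in PGC (7.91, 8.12 and 7.47) and did not pass (limma adjusted p = 0.0693). Without PGC replicate 2 it was called lower, at -0.47, and with a further quantile normalization at -0.37.

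The other eIF3 subunits differed by less. EIF3A, the large scaffold, differed by -0.12, EIF3G by -0.11 and EIF3M by -0.18. EIF3F (0.09), EIF3I (-0.03) and EIF3L (0.00) lay closest to equality. The widest of these 6 intervals, that of EIF3M, ran from -0.46 to 0.11.

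In the cap complex, EIF4E3 rose, EIF4G3, EIF4A2 and EIF4H fell, and 7 of the 11 measured genes did not pass. EIF4G3, a scaffold paralog of EIF4G1, measured 7.91, 7.69 and 8.08 in PGC and 8.25, 8.31 and 8.47 as the lowest, median and highest in GSC. All PGC arrays were lower, and the gene fell 1.34-fold (-0.43 ± 0.11, limma adjusted p = 0.00725). Its other probe sets (-0.14, -0.34 and -0.15) were not called, the last of them under the reporter mark in every array. The mean of all EIF4G3 probe sets did not pass (-0.26, limma adjusted p = 0.0626). EIF4G1 itself spread widely in PGC, at 5.25, 4.67 and 5.96, against 4.34, 4.56 and 5.00 in GSC. PGC replicate 2 lay inside the GSC range and the other PGC arrays above it, so its difference of 0.64 ± 0.25 did not pass (limma adjusted p = 0.057). Without PGC replicate 2 it was called higher by 0.95, and without GSC replicate 1 by 0.71. EIF4G2, a related protein that lacks the eIF4E-binding part, measured 10.39, 10.45 and 10.42 under a GSC range of 10.50 to 10.70, a difference of -0.15 that did not pass (limma adjusted p = 0.183). The log2 ratio of EIF4G1 to EIF4G3 was -2.67, -3.02 and -2.12 in PGC and -3.99 to -3.29 in GSC, which was not tested.

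Of the 4 cap-binding proteins, EIF4E3 passed. EIF4E3, a divergent cap-binding paralog, measured 3.83, 4.56 and 3.77 in PGC and 3.04, 3.49 and 3.66 as the lowest, median and highest in GSC. It was called higher by 0.63 ± 0.19 (limma adjusted p = 0.0208), and this call rested on PGC replicate 2, without which the difference was 0.38 (limma adjusted p = 0.108). The GSC values of EIF4E3 and those of PGC replicates 1 and 3 stood not far over the reporter mark. EIF4E, the main cap-binding protein, measured 6.97, 7.08 and 6.22 in PGC and 6.37, 6.54 and 6.74 in GSC. As for EIF2AK4, PGC replicates 1 and 2 lay above all GSC arrays and replicate 3 below them. The difference of 0.21 ± 0.17 did not pass (limma adjusted p = 0.353), but it was called higher without PGC replicate 3 (0.48, limma adjusted p = 0.00414) and, over all 9 arrays, with array weights (0.42, limma adjusted p = 0.0207). EIF4E2, a cap-binding protein linked to repression, measured 7.20, 6.97 and 7.11 in PGC and 6.89, 7.02 and 7.33 in GSC, and its 95% interval ran from -0.23 to 0.29. EIF4E1B, known as a germ cell and oocyte form in other vertebrates, was under the reporter mark in all 9 arrays (1.92 to 2.63), so that no difference could be measured for it.

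Among the helicases and their helpers the changes were small. EIF4A2, an eIF4F helicase, measured 10.94, 11.11 and 11.27 in PGC and 11.28, 11.39 and 11.45 as the lowest, median and highest in GSC. It was called lower by 0.26 ± 0.10 (limma adjusted p = 0.0488), a call lost without any 1 of GSC replicates 2 to 6 (-0.28 to -0.25), PGC replicate 1 (-0.18) or PGC replicate 2 (-0.27). Over all 9 arrays it was also lost with array medians subtracted (limma adjusted p = 0.0573) and with dim genes left out. EIF4A3, a helicase of the same family that sits in the exon junction complex, measured 10.64, 10.38 and 10.30 in PGC and 10.16, 10.26 and 10.35 in GSC, a difference of 0.18 that did not pass. EIF4H, which stimulates eIF4A, fell by 0.25 ± 0.09 with PGC values of 9.45, 9.58 and 9.57 under a GSC range of 9.72 to 9.86 (limma adjusted p = 0.0424). Its call was lost without GSC replicate 1, 2, 4, 5 or 6 (-0.26 to -0.23), PGC replicate 1 (-0.20) or PGC replicate 2 (-0.27), and the difference changed sign to 0.09 when all probe sets of the gene were averaged. The call was also lost over all 9 arrays with array medians subtracted (limma adjusted p = 0.0692) and with array weights (limma adjusted p = 0.0736). The second EIF4H probe set was dim (4.04 in PGC and 3.62 in GSC) and was not called. EIF4B, with the same helper role, did not pass (0.05), and PGC replicate 3 (6.74) stood above the others (5.88 and 5.84).

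Of 3 measured genes whose proteins bind eIF4E and hold back the cap complex, 1 rose, and limma called 0 lower (0 at an unadjusted p under 0.05). EIF4ENIF1, also called 4E-T, carries eIF4E into the nucleus and into cytoplasmic granules of repressed mRNA. It measured 7.87, 7.77 and 7.63 in PGC and 6.84, 6.91 and 7.06 as the lowest, median and highest in GSC. The arrays did not overlap, and the gene was 1.78-fold higher (0.83 ± 0.09, limma adjusted p = 4.72e-05). A second probe set for it, over the reporter mark at 5.35 in PGC and 5.33 in GSC, gave 0.02 and was not called, so the probe sets of this gene differ. EIF4EBP1 measured 9.58, 9.59 and 9.86 in PGC and 9.24, 9.45 and 9.61 in GSC, and EIF4EBP2 7.98, 7.98 and 8.43 against 7.68, 7.96 and 8.08. Both encode 4E-binding proteins that mTOR releases from eIF4E by phosphorylation. Their differences of 0.24 (95% interval -0.01 to 0.49) and 0.19 (-0.09 to 0.48) did not pass, and PGC replicate 3 was highest in both.

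Both remaining factors rose. EIF5A2, a paralog of the hypusine-bearing factor eIF5A, measured 7.64, 7.58 and 7.44 in PGC and 6.47, 6.73 and 6.79 as the lowest, median and highest in GSC. It was 1.81-fold higher (0.86 ± 0.10, limma adjusted p = 6.65e-05). EIF6, which binds the large ribosomal subunit and keeps it from joining too early, measured 8.66, 8.40 and 8.45 in PGC and 7.54, 7.79 and 7.97 in GSC. It was 1.68-fold higher (0.75 ± 0.12, limma adjusted p = 0.000551). For both genes every PGC array was above every GSC array. EIF5A and EIF4A1 were not analysed here, so the main forms of both families have no values beside their paralogs.

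Beyond the EIF names, a list of 58 other translation control genes held 49 measured ones. Of these 11 rose (22.4%, where 22.5% of all genes did), 6 fell (12.2%, where 19.5% did) and 32 did not pass. Their median log2 difference was 0.02, and 5 of the 49 had a mean under the reporter mark. Counts of the smaller lists are to be read beside these shares of all genes. Of 5 genes of methionine removal and of tRNA and hypusine modification, 3 rose. TRMT61A, the catalytic subunit that methylates an adenosine of the initiator tRNA, was 2.98-fold higher, at 6.85, 6.67 and 6.34 in PGC against 4.94 to 5.17 in GSC (1.58 ± 0.12, limma adjusted p = 2.8e-06). TRMT6, its partner subunit, differed by 0.02 ± 0.20 (SE) and did not pass. METAP1 (0.53) and METAP2 (0.58), which cut off the initiator methionine, both rose, and METAP2 lost its call without PGC replicate 2 (0.45).

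Of the regulators and partners of the cap complex, PDCD4 rose and PAIP1 fell. PDCD4, an inhibitor of the helicase eIF4A, measured 9.56, 9.40 and 9.15 in PGC and 8.08 to 8.31 in GSC. It was 2.26-fold higher (1.18 ± 0.11, limma adjusted p = 1.05e-05), and both of its other probe sets were called higher as well (0.81 and 1.13). PAIP1, which joins the poly(A)-binding protein to the cap complex, fell 2.45-fold, at 5.53, 5.99 and 5.92 against 6.87 to 7.56 (-1.29 ± 0.16, limma adjusted p = 9.68e-05). PABPC1, the poly(A)-binding protein itself, did not pass (-0.01). PDCD4 and PAIP1 were the 2 that passed in a list of 8 poly(A)-binding proteins and partners.

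Of 14 genes of mTOR signalling and its kinases, 3 rose, 1 fell and 10 did not pass. Among these 10, RPS6KA3 and MKNK2 were under the reporter mark in every array, so their levels were not measured here. EEF2K, MKNK1 and LARP1 had at least 1 array under it. RPS6KB1, the S6 kinase that phosphorylates EIF4B, fell 2.29-fold, at 4.72, 5.15 and 5.16 in PGC against 5.94 to 6.48 in GSC (-1.19 ± 0.14, limma adjusted p = 7.17e-05). MTOR (0.52), its activator RHEB (0.42) and TSC1 (0.73), which restrains RHEB, rose. MTOR lost its call without PGC replicate 1 (0.38), and TSC1 without PGC replicate 1 (0.52) or PGC replicate 2 (0.61). The other probe sets of MTOR (0.07, 0.12 and -0.06) and of TSC1 (0.02) were not called, and with the mean of all probe sets neither gene passed (MTOR 0.16, limma adjusted p = 0.144, and TSC1 0.37, limma adjusted p = 0.0922). These other probe sets were dim. The MTOR set at 0.07 was under the reporter mark in every array, and the rest had group means of 3.15 to 4.12. The second probe set of RPS6KB1 was dim too (3.01 in PGC and 3.28 in GSC) and was not called (-0.27). RHEB lost its call without GSC replicate 2 (0.42), 3 (0.40), 4 (0.37) or 5 (0.42) and without PGC replicate 1 (0.30) or 2 (0.40). Of 9 genes of elongation and termination, EEFSEC, the selenocysteine elongation factor, rose (0.42), and EEF1A2, a tissue-restricted elongation factor, fell 2.69-fold (-1.43 ± 0.28). The release factor ETF1 fell by 0.35, and EEF1A1 (-0.10) and EEF2 (-0.17), the general elongation factors, did not pass.

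Several members had more than 1 probe set, which gave a second look at the same RNA. The 44 genes had 77 probe sets, of which 15 were called higher and 15 lower in a fit over all 38439 probe sets, or 39.0%, where 28.4% of all probe sets were called. Of the 20 genes with more than 1, 10 had their representative probe set called, and for EIF1AX, EIF1B, EIF2D, EIF5B and EIF6 another was called in the same direction. Called probe sets of opposite sign occurred in 0 of the 20 genes. EIF1B gave 0.89 and 0.78, EIF2D 0.80 and 0.82, EIF6 0.75 and 0.65 and EIF5B -0.66 and -0.71. The EIF2D probe set at 0.82 was dim, with 5 of the 6 GSC arrays under the reporter mark. There were 5 genes with a representative probe set that was not called in this fit and another that was, and these were EIF2AK4, EIF2B3 (-0.52), EIF2S3 (0.39), EIF4A2 (-0.31) and EIF5 (-0.76). Of the 77 probe sets, 15 had a mean under the reporter mark. Of all tested probe sets 46.6% were under it, so the shares of 39.0% and 28.4% compare sets of unlike level.

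**Figure D4:**
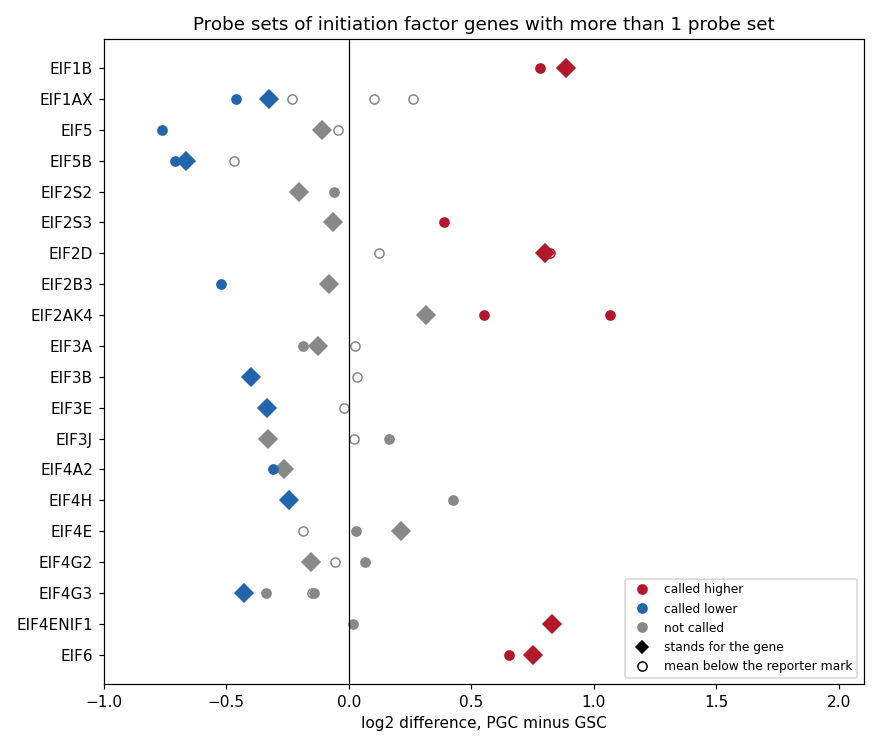
Log2 difference between PGC and GSC for each probe set of the 20 initiation factor genes with more than 1. Diamonds stand for the gene, circles are its other probe sets, open symbols have a mean under the reporter mark of 2.88, and colours give the call over all probe sets, with no gene holding both red and blue symbols.

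The size of the changes was set against that of other genes as a description. The median absolute log2 difference was 0.25 among the members, 0.30 among all genes and 0.38 among the 2387 genes of a like level. That set spans only the quartile range of the members' levels, so it is not matched to all 44. A difference of at least 0.5 on the log2 scale, in either direction, was reached by 29.5% of the members, by 34.0% of all genes and by 39.8% of those of a like level. Members spread more between PGC arrays (median SD 0.16) than between GSC arrays (0.13), and in 28 of the 44 the PGC spread was the larger one, as in 66.9% of all genes. For 23 of the 24 genes that did not pass, the 95% interval lay within 1 log2 unit of equality, and the exception was EIF4G1 (0.10 to 1.18). EIF4E1B is among the 23, but it was under the reporter mark in every array, so its interval measures no difference.

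**Figure D5:**
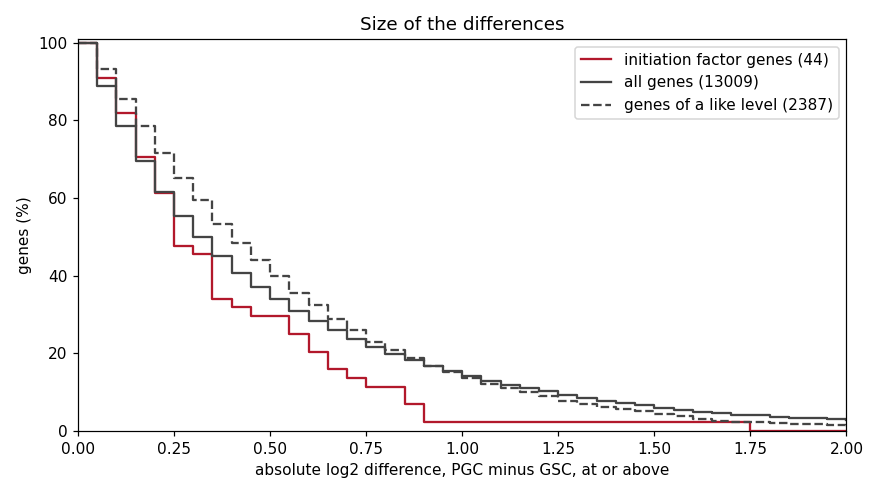
Share of genes (%) whose absolute log2 difference between PGC and GSC reached the value on the horizontal axis, for the 44 initiation factor genes (red), all 13009 genes (solid grey) and 2387 genes with a mean in the quartile range of the members' levels (dashed grey). At 1 log2 unit the shares are 2.27%, 14.1% and 13.5%.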

How the data were processed

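The values deposited by the authors are log2 expression per probe set, and the submitters' processing notes name RMA, without a version, as their source. This method removes background, equalises arrays and combines the probes of a set, and it compresses low values, so folds of dim genes are understated. The log2 scale was read from the range of the values. Per the labels' protocols, cDNA was primed with oligo(dT). Of 38535 probe sets, 96 controls were left out. The platform annotation listed a single symbol for 27168 probe sets, more than 1 for 177 and none for 11094. Of the 44 members, 42 had their Entrez number in the RefSeq gene table (GRCg7b), from which only names were taken. The representative probe set of 14 members ended in _s_at, a suffix for probes shared between transcripts, so these can hold signal of related transcripts.

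A model of cell fraction over 9 arrays was fitted to all 13009 genes with lmFit and eBayes of limma 3.58.1 in R 4.3.3, two-sided, with Benjamini-Hochberg adjustment over all genes and calls at 0.05. Every adjusted p, SE and interval is limma's. Precision is limited by how many arrays there were. The script was tested on simulated data. Members and lists were chosen with earlier results of these data known. Every member could be named, with array values for the 8 largest called changes in each direction and for paralog families, and up to 4 called genes of each other list. The alternatives changed scaling, variance model, weights, dim genes, probe sets and arrays.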

Additional observations from a re-analysis of the deposited data

Results flagged for a closer look

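For 61 named genes the highest and the lowest of the 6 GSC arrays were compared with the others, and gaps above Dixon's 95% critical value were noted, which chance gives in about 1 of 20 groups. There were 6 such values. GSC replicate 4 was low for EIF2B4 (7.48, the next at 7.86) and EIF4EBP2 (7.68, the next at 7.93) and high for EIF3M (10.05, the next at 9.75). GSC replicate 1 was low for EIF3E (9.76, the next at 10.02), GSC replicate 3 low for EIF5A2 (6.47, the next at 6.68), and GSC replicate 5 high for EIF2S3 (9.84, the next at 9.80).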

How the results depend on the processing

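Of the 20 called initiation factor genes, 7 kept their call under each of 18 alternatives, 5 higher (EIF1B, EIF2D, EIF4ENIF1, EIF5A2 and EIF6) and 2 lower (EIF1 and EIF2AK3). All 20 kept their direction in each alternative except EIF4H, which stood at 0.090 with the mean of all probe sets. Of the 24 uncalled members, 8 were called in at least 1 alternative, and leaving out dim genes removed EIF4E1B, which has no value there. With 1 array left out, 7 to 12 members were higher, 7 to 10 lower, and their median was -0.042 to 0.050, and of the other translation control genes 8 to 12 were higher and 6 to 8 lower. With GSC replicates 1 to 3 only, 5 members were higher and 5 lower (median -0.052), and 6 of the other genes were higher. With GSC replicates 4 to 6 only, 6 members were lower and 7 of the other genes higher. These fits have fewer arrays. Array weights gave a median of -0.036. With a replicate block over PGC and GSC replicates 1 to 3, 5 members were higher and 2 lower (median -0.052), and 6 of the other genes were higher. The numbers are not shown to pair the samples: deviations of same-numbered arrays correlated at 0.17, -0.26 and 0.12, and PGC replicates 2 and 3 correlated best with another number. No share of all genes stands beside the counts of these alternatives, and the cause of their changes was not tested. Low signal limits EIF4E1B, and probe sets near the reporter mark understate differences.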

Other observations

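The probe set that the annotation gives to EIF3D and FOXRED2 together was not a member, since it has more than 1 symbol. It measured 9.72 ± 0.26 in the 3 PGC arrays and 9.91 ± 0.13 in the 6 GSC arrays (mean ± SD), and its log2 difference of -0.19 did not pass in limma's fit over all probe sets (adjusted p = 0.303).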
